A study of Mus musculus with 10 samples.

Results

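The 10 genes described here encode the ISG15 conjugation machinery (Isg15, Usp18, Uba7, Ube2l6 and Herc6) and a set of interferon-induced antiviral effectors (Bst2, Rsad2, Zbp1, Rtp4 and Xaf1). They were taken by name from 56884 genes in a table of hippocampal RNA-seq counts, with earlier results of these data known. All 10 were found in the table and all 10 had enough counts to be tested. The mice were ovary-intact female P301S mice, which carry a human Tau transgene with the P301S mutation driven by the mouse Prnp promoter, and which the sample labels call hTau. At 6 months of age, 5 of them received a subcutaneous implant with 10 mm of dihydrotestosterone (DHT), an androgen that aromatase cannot convert to estrogen, and 5 received an empty (void) implant. Hippocampus was taken after 12 weeks, at 9 to 9.5 months of age, and 1 mRNA library was sequenced per mouse. Both groups carry the transgene, so the comparison is of DHT with void within P301S females.

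ISG15 is a small ubiquitin-like protein that cells make in response to type I interferon. It is attached to other proteins by an enzyme relay of its own: UBA7 activates it (E1), UBE2L6 carries it (E2), and in mice HERC6 is the main ligase that transfers it (E3). USP18 removes it again and also blocks signalling from the type I interferon receptor, and in the brain the program is known from microglia and from the response to viral infection. The effectors act at separate points: BST2 (tetherin) holds budding virus at the cell surface, RSAD2 (viperin) makes a chain-terminating nucleotide, ZBP1 senses Z-form nucleic acid and can start necroptosis, RTP4 is a receptor transporter protein, and XAF1 binds the apoptosis inhibitor XIAP. Bulk tissue was measured, so more cells of a type and more RNA per cell cannot be told apart.

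Promoter sequence is shown first, because members of this program are commonly controlled through an interferon-stimulated response element whose core is a repeated GAAA. RefSeq promoters (GRCm38.p6, 250 bases before to 50 bases after the start) were used for 7 of the 10 genes, all but Usp18, Zbp1 and Rtp4. The letters GAAANNGAAA were searched on both strands. They occur in 3.44% of all 32851 promoters of that length, and in 3 of the 7 promoters examined, those of Isg15, Bst2 and Rsad2. Each window below runs from 30 bases before to 30 bases after the match in the direction of the gene, and capitals mark the bases covered by a match. In Isg15 (chr4:156200845-156200926, minus strand) 3 overlapping matches span 78 to 57 bases before the start. In Bst2 (chr8:71537557-71537632, minus strand) 2 overlapping matches span 130 to 115 bases before it. In Rsad2 (chr12:26456533-26456602, minus strand) 1 match lies 120 to 111 bases before it, on the opposite strand, so that it reads as TTTCNNTTTC in the window printed here.
Isg15: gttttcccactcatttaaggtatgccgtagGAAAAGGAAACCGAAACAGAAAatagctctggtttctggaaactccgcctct
Bst2: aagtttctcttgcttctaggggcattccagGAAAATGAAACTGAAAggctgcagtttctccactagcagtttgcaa
Rsad2: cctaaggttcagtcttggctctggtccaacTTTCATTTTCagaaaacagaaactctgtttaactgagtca
The letters TTCNNNGAA, the core of the element bound by STAT dimers, were found only in the promoter of Bst2 among the 7 genes, 136 bases before the start and overlapping the first GAAANNGAAA match. They occur in 8.30% of all promoters. The nuclear receptor repeat AGGTCANAGGTCA, in 0.0396% of all promoters, was in none of the 7. A match describes the letters in the window and does not show a bound site.

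The libraries held between 27188854 and 47113661 counts with void and between 33523527 and 45947784 with DHT. Levels are given as CPM, counts scaled by TMM to a common library size, and differences as log2 fold changes of DHT against void with their standard error (SE), tested with edgeR's quasi-likelihood method over 17622 genes with Benjamini-Hochberg adjusted p-values. A gene was called when its adjusted p was under 0.05 and its log2 fold change was above 1. The S numbers in the sample labels were 4 to 11 for void mice and 18 to 23 for DHT mice. Labels do not say what these numbers stand for. If they give an order of the libraries, the treatment and that order cannot be told apart. Labels do not place individual mice in a cohort or litter. Summed CPM of 12 microglia markers was 471 to 545 with void and 650 to 921 with DHT, and that of 12 choroid plexus markers was 118 to 1890 and 2160 to 3050, so neither list's sums overlapped between the groups. Summed markers of T and NK cells, border macrophages, neutrophils and monocytes, B and plasmacytoid dendritic cells, endothelium, astrocytes, oligodendrocytes, neurons and hippocampal fields overlapped. Of the 10 T and NK cell markers, only 2 had enough counts to be tested. Among the untested ones, Cd3d, Cd3g and Nkg7 were higher in every DHT mouse than in any void mouse, at 0.273 CPM or less. The other markers of that list overlapped. Of the 12 markers in each of the first 2 lists, 5 microglia and 4 choroid plexus genes passed an adjusted p of 0.05 in the upward direction. Over all genes tested, 5.22% did. Of the 50 tested genes of the other lists, 0 passed by edgeR or DESeq2 (7 at an unadjusted p under 0.05, all higher). Every marker on these lists had at least 1 count in some mouse.

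With DHT, 5 of the 10 genes were called higher (Isg15, Usp18, Bst2, Zbp1 and Rtp4), against 2.17% of all genes tested. A further 2, Ube2l6 and Xaf1, passed the adjusted p with a smaller fold change, which makes 7 of 10 against 5.22% of all genes tested. The remaining 3, Uba7, Herc6 and Rsad2, did not pass. All 10 log2 fold changes were positive, 0.62 to 2.42 with a median of 1.48, beside a median of 0.01 and 52.4% positive over all genes tested. In 4 genes (Usp18, Bst2, Zbp1 and Rtp4) every DHT mouse was above every void mouse, against 5.39% of all genes tested. Zbp1, with 3 to 9 counts per library with void, passed the filter on low counts only through the DHT mice. Its call and its lack of overlap are therefore not independent of that filter.

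**Figure D1:**
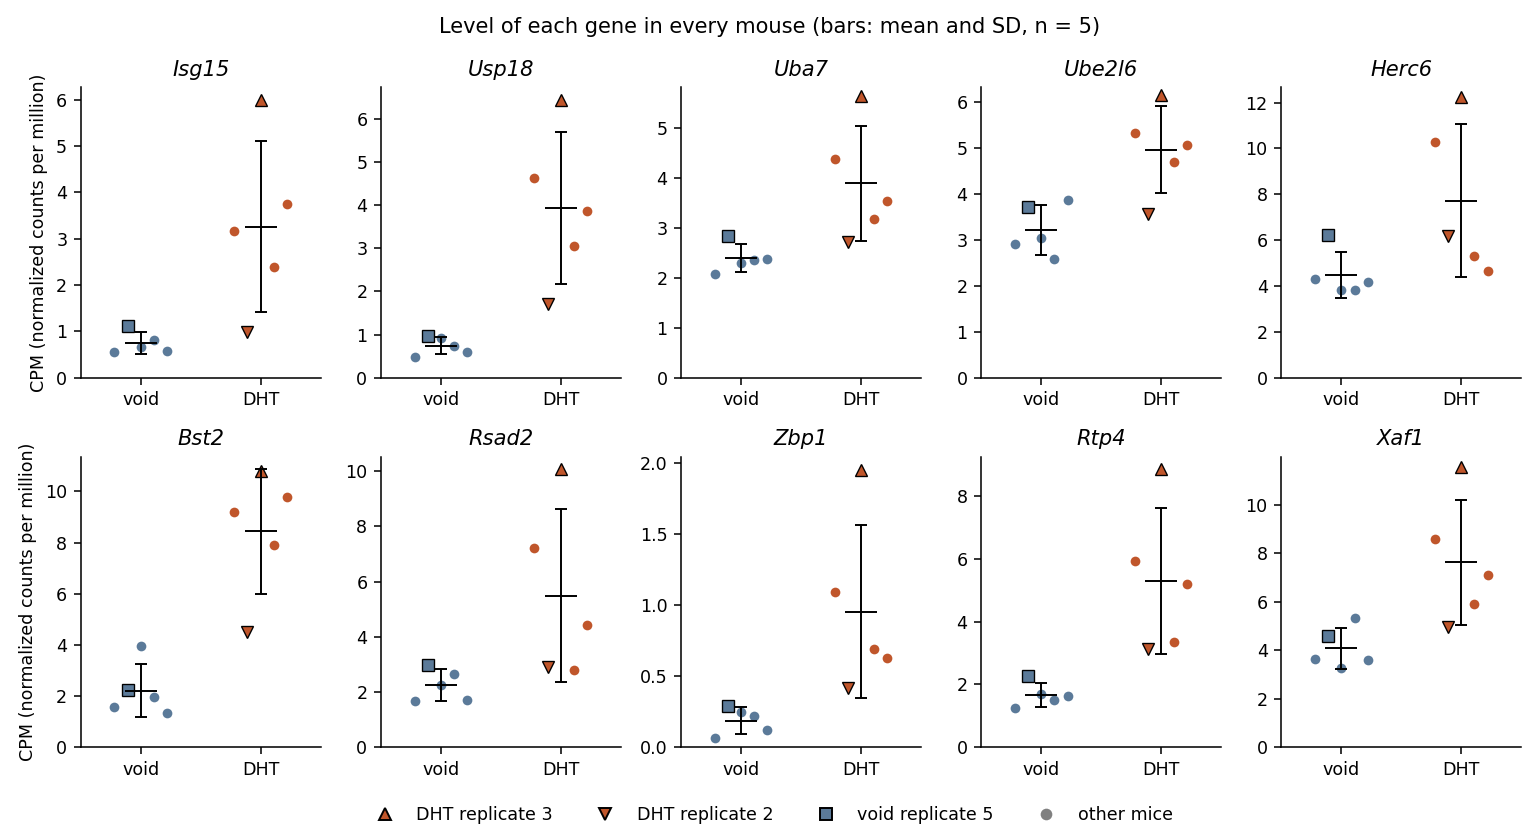
Level of each of the 10 genes in each mouse (CPM, linear axes from 0; void and DHT side by side, 1 point per mouse, bars of mean and SD, n = 5; marked are DHT replicates 3 and 2 and void replicate 5). DHT replicate 3 is the highest mouse in all 10 genes, and in Usp18, Bst2, Zbp1 and Rtp4 the groups do not overlap.

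Isg15 (ENSMUSG00000035692), the modifier itself, was at 0.550, 1.12, 0.651, 0.812 and 0.569 CPM in void replicates 4, 5, 9, 10 and 11, the order kept for all void values here. It was at 3.17, 0.987, 5.99, 2.39 and 3.75 CPM in DHT replicates 1, 2, 3, 5 and 6, the order kept for all DHT values. DHT replicate 2 lay below void replicate 5, and the other 4 DHT mice lay above every void mouse. Isg15 averaged 0.740 ± 0.235 CPM in void mice (SD, n = 5) and 3.26 ± 1.85 in DHT mice (SD, n = 5), and the log2 fold change was 2.15 ± 0.41 (SE, adjusted p = 0.0122). Isg15 stayed past the threshold whichever mouse was left out (adjusted p at most 0.0479). A transcript 95.2% identical to Isg15 over 482 bases, AC151275.1, had no count in any mouse.

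Of the enzymes that attach ISG15, the E2 rose and the E1 and E3 did not pass edgeR's test, although the E2 had the smallest fold change of the 3. With DESeq2 all 3 passed, at an adjusted p of 0.0140 for Uba7, 0.00911 for Ube2l6 and 0.0458 for Herc6. Uba7, the E1, was at 2.07, 2.84, 2.30, 2.36 and 2.37 CPM with void and at 4.37, 2.71, 5.63, 3.17 and 3.54 with DHT. Again only DHT replicate 2 fell within the void range, and the log2 fold change was 0.71 ± 0.19 (SE, adjusted p = 0.0535). Leaving out DHT replicate 2 brought the adjusted p to 0.0230.

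Ube2l6, the E2, was at 2.90, 3.71, 3.04, 2.58 and 3.87 CPM with void and at 5.33, 3.55, 6.14, 4.70 and 5.06 with DHT. It rose by a log2 fold change of 0.62 ± 0.16 (SE, adjusted p = 0.0454), the smallest change of the 10 genes, with 4 DHT mice above every void mouse. That call rests on each of 9 mice: it was lost on leaving out any mouse other than DHT replicate 2, with adjusted p between 0.0560 (without void replicate 5) and 0.137 (without DHT replicate 1). A near-identical transcript, Gm17167, had at most 26 counts in a library.

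Herc6, the E3, was at 4.31, 6.23, 3.82, 3.84 and 4.16 CPM with void and at 10.3, 6.17, 12.2, 5.30 and 4.65 with DHT. Only DHT replicates 1 and 3 were above every void mouse, and void replicate 5 stood above the other void mice. The log2 fold change was 0.79 ± 0.27 (SE, adjusted p = 0.118), and it passed in none of the fits with 1 mouse left out.

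Usp18 (ENSMUSG00000030107), which takes ISG15 off again, had the largest log2 fold change of the 10 genes. It was at 0.486, 0.959, 0.931, 0.738 and 0.599 CPM with void and at 4.62, 1.70, 6.43, 3.05 and 3.87 with DHT. Every DHT mouse was above every void mouse, DHT replicate 2 by the smallest margin. The log2 fold change was 2.42 ± 0.34 (SE, adjusted p = 0.00670), a fold of 5.36, and it ranged from 2.14 to 2.61 with 1 mouse left out. Usp18 shares 124 exonic bases with Gm44148 on the opposite strand, and whether counting used strand is not given in the sources used here. On the same strand, Uba7 shares 233 exonic bases with Gm20661, Rtp4 296 with Gm45338 and Herc6 1269 with Gm45193, so their counts are uncertain to the extent that reads were split or dropped there. Gm45193 had no count in any mouse.

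The attaching enzymes can be set against their ubiquitin-side relatives in the same mice. Uba1, the E1 for ubiquitin, had a log2 fold change of 0.02 ± 0.07 (SE, adjusted p = 0.924), and near 0 its sign depended on the scaling. Ube2l3, an E2 for ubiquitin, was at 0.05 ± 0.06 (SE, adjusted p = 0.729), and Herc3, a HERC ligase, at -0.05 ± 0.05 (SE, adjusted p = 0.717). Within each mouse, the log2 CPM of Uba7 minus Uba1 was higher with DHT by 0.63 ± 0.23 (SE; n = 5 against 5, two-sided exact permutation test over all splits of the mice, p = 0.0317, adjusted over the 3 pairs to 0.0476). Ube2l6 minus Ube2l3 was higher by 0.55 ± 0.15 (SE; same exact test, p = 0.0238, adjusted 0.0476). Herc6 minus Herc3 was higher by 0.75 ± 0.33 (SE; same exact test, p = 0.0635, adjusted 0.0635) and did not pass. Adjusted over the 3 pairs, the differences for the E1 and E2 passed, with 2 and 4 DHT mice above every void mouse, and that for the E3 did not. Because Uba1 and Ube2l3 hardly changed, the first 2 differences are largely the changes of Uba7 and Ube2l6 themselves, measured in the same mice. They are adjusted over 3 pairs rather than over all genes tested, and so are not a separate test of Uba7 and Ube2l6. By edgeR over all genes tested, Uba7 did not pass (adjusted p = 0.0535). Leaving out void replicate 4, 9, 10 or 11 or DHT replicate 1 or 3 raised the first 2 pairs above 0.05, to adjusted values from 0.0595 to 0.107. For the third pair, leaving out void replicate 5 or DHT replicate 5 or 6 brought it to 0.0238, 0.0476 and 0.0317.

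**Figure D2:**
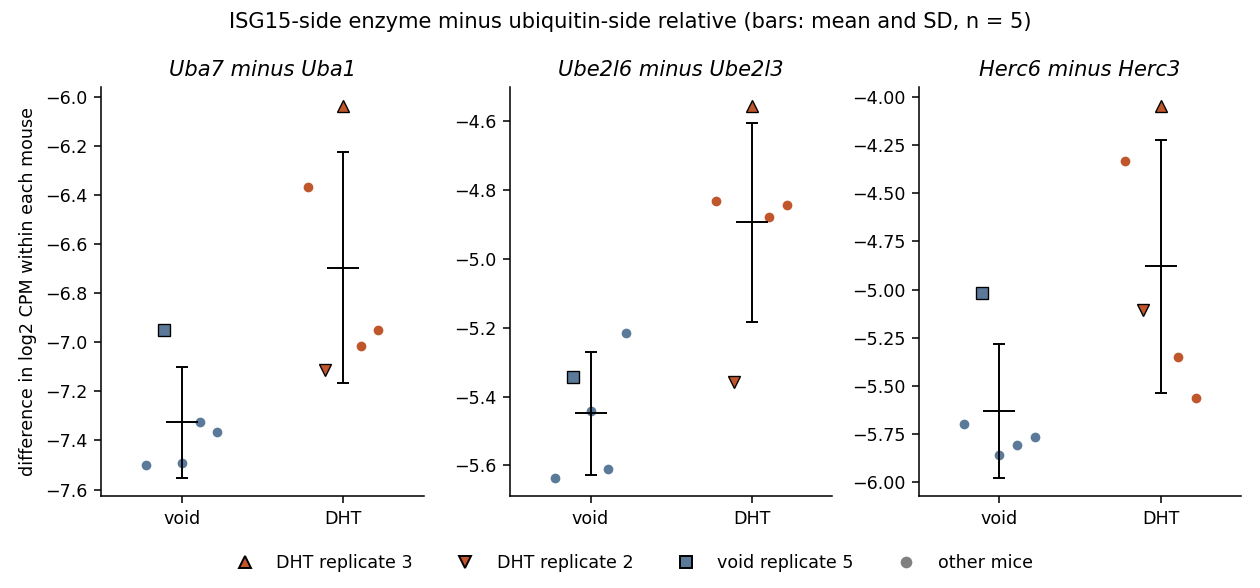
Difference in log2 CPM within each mouse between an ISG15-side enzyme and its ubiquitin-side relative (Uba7 minus Uba1, Ube2l6 minus Ube2l3, Herc6 minus Herc3; 5 void and 5 DHT mice, 1 point per mouse, bars of mean and SD). The DHT means are higher by 0.63, 0.55 and 0.75, and the groups overlap in all 3 panels.

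Of 10 relatives in the wider list (E1 enzymes, the E2, HERC ligases and receptor transporter proteins), 9 were tested and 0 were called in either direction at an adjusted p of 0.05 by edgeR's quasi-likelihood test, 0 at an unadjusted p under 0.05 and 0 by DESeq2. Their log2 fold changes ran from -0.55 to 0.05 with a median of -0.05, and 3 were positive.

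Among the effectors, Bst2 (ENSMUSG00000046718), the tetherin gene with the paired GAAA matches shown above, was at 1.59, 2.24, 3.94, 1.96 and 1.35 CPM with void and at 9.18, 4.52, 10.8, 7.90 and 9.77 with DHT. The groups did not overlap. Void replicate 9 was the highest void mouse here, unlike most of the other genes, where void replicate 5 was. Bst2 rose by a log2 fold change of 1.94 ± 0.30 (SE, adjusted p = 0.00761), and it passed with every mouse left out in turn.

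Rsad2, the viperin gene, was at 1.67, 2.97, 2.27, 2.66 and 1.71 CPM with void and at 7.21, 2.91, 10.1, 2.78 and 4.44 with DHT. DHT replicates 2 and 5 lay inside the void range and the other 3 above it. The log2 fold change was 1.297 ± 0.35 (SE, adjusted p = 0.0524), and it passed without DHT replicate 2 (0.0276) or DHT replicate 5 (0.0343), with DESeq2 (0.00359) and with no filter on low counts (0.0245). Cmpk2, the kinase gene that lies beside Rsad2 in the genome and is often induced with it, averaged 25.3 ± 1.62 CPM in void mice and 28.5 ± 1.54 in DHT mice (SD, n = 5 each), with a log2 fold change of 0.17 ± 0.07 (SE, adjusted p = 0.176).

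Zbp1, the sensor, was the least abundant of the 10 genes, with 3 to 9 counts per library with void and 17 to 93 with DHT. It was at 0.0634, 0.288, 0.248, 0.221 and 0.120 CPM with void and at 1.09, 0.420, 1.95, 0.688 and 0.625 with DHT. Every DHT mouse was above every void mouse, but the gene passed the filter on low counts only through the DHT mice. Zbp1 rose by a log2 fold change of 2.41 ± 0.49 (SE, adjusted p = 0.0161), and leaving out void replicate 11 took the adjusted p to 0.0572. Of its 6 listed partners, Casp8, the caspase that restrains necroptosis, rose by a log2 fold change of 0.85 ± 0.16 (SE, adjusted p = 0.0119). The other 5 did not pass: Ripk1, Ripk3, Mlkl and Fadd were between 0.33 and 0.40, and Adar at -0.15.

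Rtp4, the transporter protein gene, was at 1.25, 2.27, 1.71, 1.51 and 1.62 CPM with void and at 5.93, 3.13, 8.86, 3.35 and 5.18 with DHT. The groups did not overlap, and Rtp4 rose by a log2 fold change of 1.67 ± 0.28 (SE, adjusted p = 0.00941). It passed with every mouse left out in turn. Its relatives Rtp1 and Rtp2 were at -0.55 ± 0.37 and 0.02 ± 0.32 (SE) and did not pass (adjusted p of 0.518 and 0.988).

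Xaf1 was at 3.64, 4.57, 3.29, 5.31 and 3.60 CPM with void and at 8.61, 4.96, 11.6, 5.90 and 7.09 with DHT. DHT replicate 2 fell below void replicate 10, and the other 4 DHT mice were above every void mouse. Xaf1 rose by a log2 fold change of 0.91 ± 0.22 (SE, adjusted p = 0.0350). The call was lost without void replicate 4, 5, 9 or 11 or DHT replicate 1, 3 or 6, with adjusted p from 0.0530 to 0.111. Xiap, the inhibitor it binds, was at -0.03 ± 0.09 (SE, adjusted p = 0.933).

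**Figure D3:**
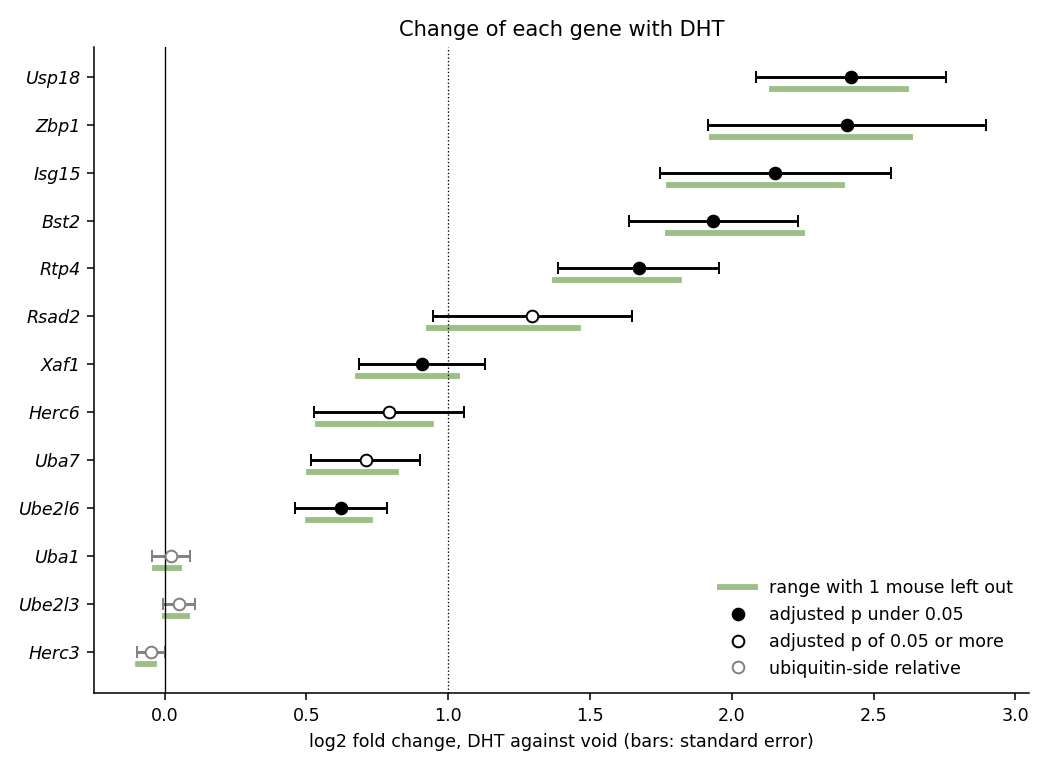
Log2 fold change of DHT against void for the 10 genes in order of size, with 3 ubiquitin-side relatives below (points with bars of 1 SE; edgeR, 5 mice per group; green bars for the range with 1 mouse left out; filled points for an adjusted p under 0.05; dotted line at 1). The 10 genes all lie above 0, from 0.62 for Ube2l6 to 2.42 for Usp18, and Uba7, Herc6 and Rsad2 did not pass an adjusted p of 0.05.

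The mice kept much the same place from gene to gene. DHT replicate 3 was the highest mouse for all 10 genes and DHT replicate 2 the lowest DHT mouse for 8. Void replicate 5 was the highest void mouse for 7 and void replicate 4 the lowest for 6. Relative to the void mean, the median log2 difference over the 10 genes was 1.76, 0.46, 2.27, 0.78 and 1.29 in the 5 DHT mice, so DHT replicate 2 was close to void replicate 5 (0.41). The number of genes above every void mouse was 10, 4, 10, 8 and 9 in these DHT mice. In the same DHT mice, summed microglia markers were 921, 650, 665, 704 and 658 CPM, and choroid plexus markers 3050, 2200, 2160, 2240 and 2460 CPM. DHT replicate 2 was lowest both for microglia markers and for the 10 genes, and DHT replicate 1 was highest for microglia markers and next to the highest for the 10 genes. DHT replicate 3, highest for the 10 genes, was in the middle for microglia markers and lowest for choroid plexus markers. In the void mice, the summed level of the 10 genes was 18.52, 27.19, 22.18, 21.99 and 19.95 CPM. Their choroid plexus sums were 959, 118, 1890, 455 and 125 CPM, and their microglia sums 490, 493, 471, 545 and 494 CPM. Void replicate 5 was thus highest for the 10 genes, and void replicate 10 for microglia markers. No test of these orders was made.

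**Figure D4:**
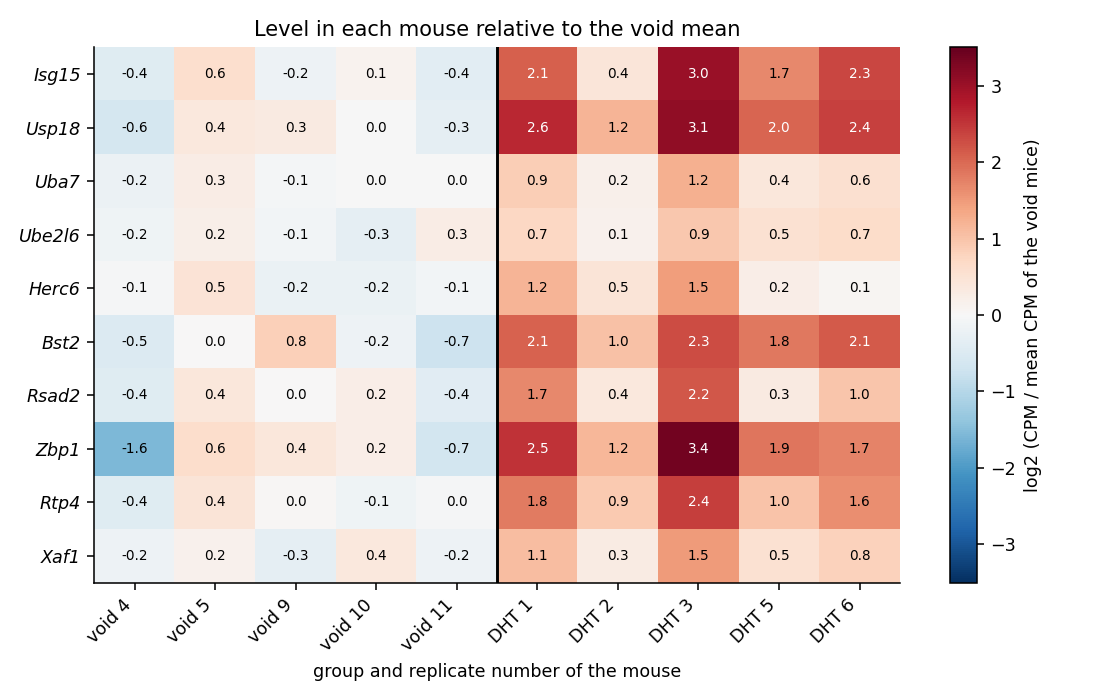
Level of each of the 10 genes (rows) in each mouse (columns) as log2 of CPM over the mean CPM of the void mice. DHT replicates 1 and 3 are the most strongly coloured columns (median 1.76 and 2.27), and DHT replicate 2 (0.46) is close to void replicate 5 (0.41).

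With the choroid plexus marker score of each mouse as a covariate in the same fit, all 10 log2 fold changes stayed positive (0.82 to 2.42, median 1.28). Bst2 moved the most, from 1.94 down to 1.31. Usp18, Rsad2 and Zbp1 fell slightly, and the other genes rose. The median SE went from 0.29 to 0.50, and 0 of the 10 passed (adjusted p at least 0.618, and 8 at an unadjusted p under 0.05). With the microglia score, all 10 were again positive (0.37 to 2.18, median 1.19, median SE 0.55), and 0 passed (adjusted p 0.973, and 5 at an unadjusted p under 0.05). Over all genes tested, 0 passed an adjusted p of 0.05 in either fit, with 1161 and 707 at an unadjusted p under 0.05. As the groups do not overlap on either marker sum, the share of the change that goes with these cell types and the share that does not cannot be told apart here. Both covariates were chosen after seeing the data.

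Levels were compared between genes per kilobase of the longest coding transcript. With void, Bst2 was highest at 2.79 ± 1.29 CPM per kb (SD, n = 5), followed by Ube2l6 (2.06), Xaf1 (1.57), Isg15 (0.979), Herc6 (0.938), Rtp4 (0.899), Uba7 (0.747), Rsad2 (0.596), Usp18 (0.419) and Zbp1 (0.0946 ± 0.0469). The means of Bst2 and Ube2l6 differed by less than the larger SD of the pair, taken here as their spread. The same held for each neighbouring pair from Isg15 to Rsad2. Within mice, Rtp4 was still above Uba7, and Uba7 above Rsad2, in all 5 void mice. With DHT, the order began with Bst2 at 10.6 ± 3.07 CPM per kb (SD, n = 5), which exceeded Isg15 (4.31 ± 2.44), next in order, by more than their spread. Isg15 and Usp18 moved from the fourth to the second place and from the ninth to the sixth. From Isg15 down to Uba7 (1.22), no neighbouring genes differed by more than their spread with DHT, although Rtp4 was above Usp18 in all 5 DHT mice. Zbp1 (0.480 ± 0.305) was again last.

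The other genes of the interferon pathway, 62 listed by role, show which parts of the pathway moved. Of these, 41 were tested, 34 had a positive log2 fold change, 6 were called higher (against 2.17% of all genes), 13 passed an adjusted p of 0.05 in the upward direction (against 5.22%) and 0 in the downward direction (0 also at an unadjusted p and by DESeq2), with a median log2 fold change of 0.34. The called count ranged from 3 (without DHT replicate 1) to 10 (without void replicate 5 or DHT replicate 2). With either covariate it was 0 by edgeR, with 13 genes (choroid plexus) and 4 (microglia) at an unadjusted p under 0.05. The list was drawn up by role, with earlier results of these data known.

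Of 20 interferon genes, 0 had enough counts to be tested, and 18 had no count in any mouse. A count of 0 allows up to 0.0637 to 0.110 CPM per library (3 counts, counting error only), so lower levels were not detectable at this depth. Ifnb1 had 1 count, in DHT replicate 3, and Ifng at most 2 in a library. Of the receptor subunits, Ifnar1 averaged 49.3 ± 2.09 CPM in void mice and 50.2 ± 1.52 in DHT mice (SD, n = 5 each), and Ifnar2 at 6.24 ± 0.70 and 7.24 ± 1.29, and neither passed (adjusted p = 0.874 and 0.466, edgeR). Ifnlr1, a receptor subunit for type III interferon, rose from 0.333 ± 0.105 to 0.692 ± 0.127 CPM (SD, n = 5 each; log2 fold change 1.03 ± 0.24 SE, adjusted p = 0.0292). That call was lost without void replicate 4, 10 or 11 or DHT replicate 1, 3, 5 or 6 (adjusted p from 0.0516 to 0.100). Ifnlr1 had only 5 to 17 counts per library with void and 20 to 29 with DHT. Of the other listed receptor genes, Il10rb had too few counts to be tested. Ifngr1 and Ifngr2 did not pass (adjusted p = 0.167 and 0.968, edgeR).

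Of the 6 transcription factors of the pathway, 2 were called, against 2.17% of all genes tested. Irf7, which amplifies interferon transcription, ranged from 0.761 to 1.51 CPM in void mice and from 2.99 to 10.6 in DHT mice, a log2 fold change of 2.18 ± 0.33 (SE, adjusted p = 0.00761). Irf9, the DNA-binding subunit of the complex that type I interferon activates, rose from 7.87 ± 0.68 to 16.3 ± 4.18 CPM (SD, n = 5 each), and its log2 fold change was 1.06 ± 0.16 (SE, adjusted p = 0.00761). In both, no DHT mouse was below a void mouse, and DHT replicate 3 was the highest and DHT replicate 2 the lowest of the DHT mice, the places they hold for most of the 10 genes. Stat2 had a log2 fold change of 0.12 ± 0.09 (SE, adjusted p = 0.602).

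Among 11 nucleic acid sensors and adaptors, 5 passed the adjusted p in the upward direction, against 5.22% of all genes tested. These were Rigi (log2 fold change 0.92 ± 0.20) and Ifih1 (0.94 ± 0.21), sensors of cytosolic RNA, Tlr7 (0.999 ± 0.20) and Tlr9 (1.07 ± 0.21), receptors for endosomal nucleic acid, and Sting1 (0.52 ± 0.13), the adaptor downstream of the DNA sensor cGAS. Their adjusted p lay between 0.0139 and 0.0361. Sting1 passed only without DHT replicate 2 or 3 when a mouse was left out (otherwise 0.0584 to 0.126). Rigi and Ifih1 were lost without void replicate 4, 10 or 11 or DHT replicate 1 (0.0574 to 0.0706 for both genes), and Tlr7 (0.0568) and Tlr9 (0.0533) without void replicate 11. Microglia are known to express several of these genes. Neither summed microglia markers nor summed choroid plexus markers overlapped between the groups, as given above. A part of these cell types in the sensor changes cannot be told apart from other changes and was not tested.

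Trim25, which can ligate ISG15, rose by 0.88 ± 0.20 (SE, adjusted p = 0.0236), and Itgb2, a chain of the LFA-1 receptor for secreted ISG15, by 1.10 ± 0.19 (SE, adjusted p = 0.00990). The other genes listed in this role did not pass. Itgal, the other chain of LFA-1, was at 0.35 ± 0.32 (SE, adjusted p = 0.666), and Arih1 at -0.03 ± 0.07 (SE, adjusted p = 0.894). Itgb2 and the myeloid phosphatase Ptpn6 (1.22 ± 0.16, adjusted p = 0.00670) are known from leukocytes and microglia. Socs3, an inhibitor of cytokine receptors, rose by 0.94 ± 0.22 (SE, adjusted p = 0.0321), while Socs1 was at 0.76 ± 0.30 and Ptpn2 at -0.08 ± 0.13, neither past the threshold. Trim25 was lost without void replicate 4, 10 or 11 or DHT replicate 1 or 3 (adjusted p from 0.0638 to 0.0788), and Socs3 without any mouse but void replicate 5 and DHT replicate 2 (0.0549 to 0.0946). Irf7, Irf9, Casp8, Itgb2 and Ptpn6 passed whichever mouse was left out. The kinases Jak1, Jak2 and Tyk2 were between -0.03 and 0.03 and did not pass.

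**Figure D5:**
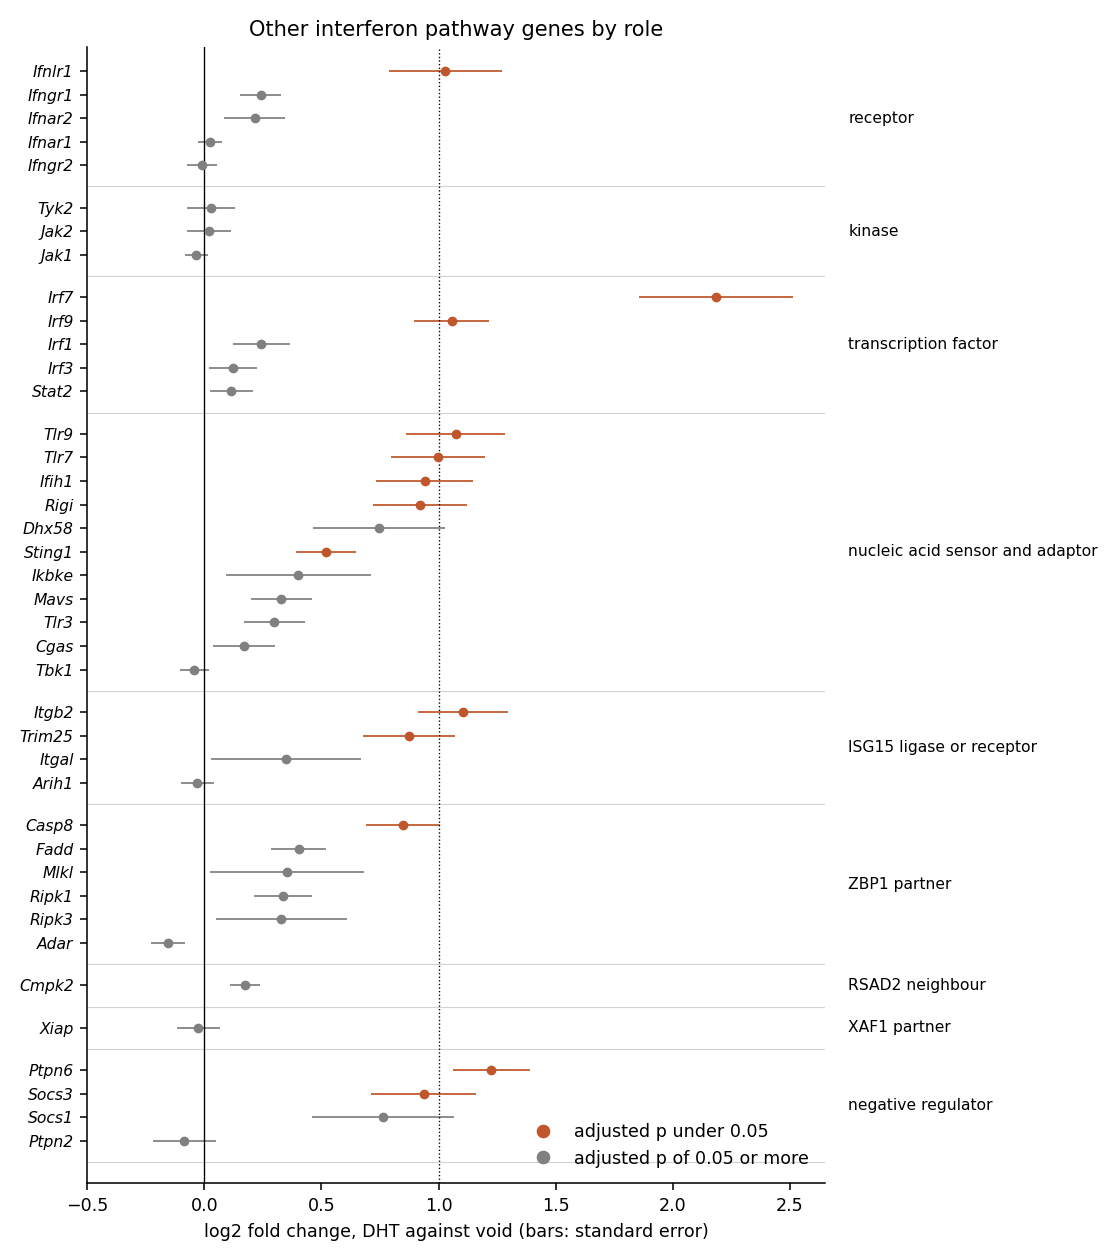
Log2 fold change of DHT against void for tested genes of the interferon pathway list, grouped by role, with 1 gene not shown (points, with bars of 1 SE; coloured where the adjusted p is under 0.05, grey otherwise; dotted line at a log2 fold change of 1). The 13 coloured genes all lie to the right of 0, with Irf7 the highest at 2.18.

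Genes outside the 10 whose variation between mice was most like theirs were found by correlating deviations from the group means over the 10 mice, among 14827 genes with a mean of at least 1 CPM. The closest were Hist1h1c (Pearson r = 0.97), Gbp3 (0.96), Cd274 (0.96), Gm6548 (0.96) and Irf9 (0.96). These values describe 10 mice that share libraries across all genes, and carry no test. Gbp3, an interferon-induced guanylate-binding protein gene, averaged 5.32 ± 1.48 CPM in void mice and 12.6 ± 5.69 in DHT mice (SD, n = 5 each), and in DHT replicates 3 and 2 at 21.4 and 7.35. Cd274, which encodes PD-L1, was at 3.81 ± 0.58 and 6.65 ± 2.03 (SD, n = 5 each), and Hist1h1c, a linker histone gene, at 13.5 ± 1.08 and 22.7 ± 5.24. All 5 also passed an adjusted p of 0.05 for DHT against void (edgeR), as did 5.22% of all genes tested in the upward direction. Their log2 fold changes ran from 0.75 to 1.26. Gbp3 lost the call without void replicate 4, 10 or 11 or DHT replicate 1 or 3 (0.0537 to 0.0856), and Cd274 without these or void replicate 9 (0.0554 to 0.104).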

How the data were processed

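Hippocampal mRNA was sequenced from 5 void and 5 DHT females, 1 library each; p-values measure the spread between these mice. The authors deposited raw counts per gene, made from reads trimmed with HTStream and aligned with STAR (version 2.7.10b in the submitters' processing notes). The paper names mm10, while the processing notes list mm39 and GRCm39, so no coordinates are given for counted genes, and promoter positions are those of RefSeq for GRCm38.p6. Annotation release, strand setting and handling of reads matching several genes are not given in the sources used here. Symbols, from GENCODE M21, matched 51948 of 56884 gene identifiers.

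Grouping followed the labels. The deposited counts were tested with edgeR 4.0.16 under R 4.3.3 (TMM, expression filter by group, quasi-likelihood test, Benjamini-Hochberg over 17622 genes), and DESeq2 1.42.0 was an alternative. SE is the absolute log2 fold change over the square root of F. Log2 CPM for pairs and likeness used a prior count of 2, and exact permutation tests used scipy 1.17.1. Both count models were tested on simulated counts. Named were all 10 genes, the relatives in the 3 pairs, Stat2, Irf9, Irf7, Ifnar1, Ifnar2, every called gene of the pathway list, and the 5 genes most alike; 1 further gene is not reported here. Other genes of the lists were named after their values were seen. The 10 genes and the lists were chosen with earlier results of these data known.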

Additional observations from a re-analysis of the deposited data

Results flagged for a closer look

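In all, 4 values stood apart from the other 4 mice of their group, out of 74 groups of 5 mice examined; chance alone marks about 1 group in 20, or 3.7 here. The measure is the gap to the nearest mouse as a share of the group's range, and 0.71 is the limit for 5 mice. Herc6 in void replicate 5 was the highest of the void mice, with a gap of 0.794. The difference Herc6 minus Herc3 was likewise highest in void replicate 5, with a gap of 0.809. Irf7 in void replicate 4 was the lowest of the void mice (0.900), and Sting1 in void replicate 11 the highest (0.860).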

How the results depend on the processing

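The 10 genes kept a positive log2 fold change under every alternative in which they were tested. The count called higher was 5, and 4 to 7 with 1 mouse left out. Over all genes, 382 were called higher, 462 with DESeq2, and 175 (without DHT replicate 1) to 513 (without void replicate 9) with 1 mouse left out. With the choroid plexus or the microglia covariate, added after seeing the data, 0 were called, of the 10 genes and of all genes. Of the 10 genes, those past the adjusted p numbered 7, 10 with DESeq2 and 6 with DESeq2 size factors. They numbered 6 of 9 where each library had to hold 10 counts of a gene (Zbp1 not tested). With 1 mouse left out they numbered 4 (without void replicate 11) to 9 (without DHT replicate 2). For Ube2l6 the adjusted p was 0.0576 with DESeq2 size factors and 0.0557 with no filter, where Ifnlr1 (0.0572) and Sting1 (0.0575) were lost too. For the interferon pathway list the called count was 6, 13 without the fold limit, 3 to 10 with 1 mouse left out, and 0 with either covariate; for the relatives it was 0 throughout. With 1 mouse left out, the pair differences ranged from 0.466 to 0.735 (Uba7 minus Uba1), 0.470 to 0.670 (Ube2l6 minus Ube2l3) and 0.540 to 0.919 (Herc6 minus Herc3). Values near 0 changed sign: Uba1 was at -0.00637 with DESeq2, -0.00633 with DESeq2 size factors, -0.0382 with the choroid plexus covariate, and -0.0340 to 0.0518 with 1 mouse left out. Ifnar1 was at -0.00168 with DESeq2, -0.00112 with its size factors, -0.00408 (choroid plexus covariate), -0.0305 (microglia covariate) and -0.0202 to 0.0405 with 1 mouse left out. Stat2 was at -0.0432 with the choroid plexus covariate and Ifnar2 at -0.273 with the microglia covariate. For all of these the cause was not tested. No paired analysis was possible because the labels give no litter, cohort or other matching of void with DHT mice. Genes near Zbp1's level of a few counts per library are the least precise.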
